A study of Homo sapiens with 30 samples.

Results

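The 45 genes described here encode proteins that build ribosomes: 2 subunits of RNA polymerase I, 8 nucleolar and small nucleolar RNA-bound proteins, 18 proteins of the small subunit processome, 4 late 40S factors and 13 factors of the 60S subunit. They were taken by symbol from a written list of ribosome biogenesis genes, and the rule itself used no measured value, although the list was drawn up with earlier results of these data known. All 45 were found among the 60617 genes of each table, and all 45 passed the filter on low counts in every comparison.

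Ribosomes are made in the nucleolus, where RNA polymerase I transcribes a long precursor of the ribosomal RNAs. The small subunit processome folds and cleaves the part of this precursor that becomes the 40S subunit, while small nucleolar ribonucleoproteins (snoRNPs) guide its chemical modification. A separate set of factors, among them the PeBoW complex, matures the 60S subunit, and the output of the whole pathway is closely tied to cell growth and is often raised in colorectal cancer.

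RNA was sequenced from HCT116 and SW480, human colorectal cancer cell lines, after small interfering RNAs (siRNAs) had lowered BRD8 or TIP60. TIP60 is a lysine acetyltransferase, the product of the gene KAT5, and BRD8 is a bromodomain protein of the same complex. Neither the control groups nor the depleted groups carried any other labelled alteration. Each line is 1 established line, grown in its own medium, with 5 groups of 3 libraries, 30 libraries in all: a control siRNA, siBRD8-6, siBRD8-36, siTIP60-2 and siTIP60-11, each at 10 nM for 48 h. Whether the 3 replicates of a group were grown separately is not in the labels, so a p-value here speaks of variation among these libraries, which could be purely technical.

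Total counts per library were 13.4 to 18.6 M in HCT116 and 7.07 to 11.7 M in SW480, with the controls shallowest there (7.07 to 7.69 M). Its siRNAs left BRD8 at 20.8% (siBRD8-6) and 14.2% (siBRD8-36) of control in HCT116, and 24.7% and 21.2% in SW480. For KAT5 the values were 7.37% (siTIP60-2) and 9.93% (siTIP60-11) in HCT116, against 8.01% and 13.7% in SW480. With siBRD8-36, KAT5 was also lower, at 80.4% of control in HCT116 and 75.03% in SW480. Of 10 markers of colorectal epithelium, 3 lay under 1 CPM (counts scaled to a common library size) on average in HCT116 (VIL1, CDX1, CEACAM5) and 3 in SW480 (KRT20, CDX1, and CEACAM5, which was at 0 in all SW480 libraries), and KRT8 was the most abundant. The summed level of 5 fibroblast markers was at most 69.6 CPM, that of 5 leukocyte markers at most 23.2 CPM and that of 3 endothelial markers at most 2.42 CPM in any library. PTPRC was at 0 in all SW480 libraries, as were COL1A2, DCN and LUM, and CDH5 was at 0 in both lines. Some libraries stood apart from their group. Ribosomal protein genes took 9.81% of the counts in HCT116 control replicate 2, against 7.44% and 7.12% in the other controls. They took 7.63% in SW480 siBRD8-36 replicate 3, against 9.49% and 9.26% in its group. In HCT116, mitochondrial genes took 1.85% in siBRD8-36 replicate 2, against 2.49% and 2.55%, and 1.63% in siBRD8-6 replicate 2, against 2.24% and 2.17%.

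The promoter windows shown here hold CACGTG, the E-box to which basic helix-loop-helix leucine zipper proteins bind, and they are shown because this was the most frequent of 3 motifs searched and lies close to the start site in genes that later differ in response. RefSeq windows (GRCh38.p14, 250 bases before to 50 after a start) were given for 36 of the 45 genes. Each stretch below runs 5′ to 3′ on the strand of its gene, with the motif in capitals.

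UTP20 (chr12:101280083-101280112, plus strand): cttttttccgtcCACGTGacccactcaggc
NOL6 (chr9:33473894-33473923, minus strand): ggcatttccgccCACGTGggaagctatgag
PES1 (chr22:30591880-30591909, minus strand): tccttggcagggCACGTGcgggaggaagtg
BYSL (chr6:41921515-41921544, plus strand): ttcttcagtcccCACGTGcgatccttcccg
FBL (chr19:39846356-39846385, minus strand): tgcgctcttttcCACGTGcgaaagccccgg
GNL3 (chr3:52686026-52686055, plus strand): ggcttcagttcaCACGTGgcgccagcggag
WDR43 (chr2:28894658-28894687, plus strand): cgcacggacgaaCACGTGgctgcagcgggg
UTP4 (chr16:69132621-69132650, plus strand): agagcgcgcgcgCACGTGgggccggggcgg

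CACGTG, which reads the same on both strands, was present in 17 of the 40 promoter windows of these genes (42.5%), against 23.75% of 80 windows of other ribosome biogenesis genes, 9.204% of the windows of genes tested in HCT116 and 7.256% of all 35116 windows. CCGGAAG, read on both strands as the core of sites for ETS factors, was in 35% of the windows, against 48.75% of those of the other ribosome biogenesis genes and 16.38% of those of the genes tested. The palindromic site of NRF1 was in 7.5%, against 1.25% and 1.881%. No one of the 3 motifs contains another, and a match describes the window only.

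In control cells the steady-state levels spanned a wide range. Per transcript length, NPM1, which encodes the histone-binding nucleolar protein nucleophosmin, was the highest in both lines, at 2382 TPM (a level corrected for transcript length) in HCT116 and 3116 TPM in SW480, and the median of the 45 genes was 68.3 and 54.5 TPM. UTP20, a very large scaffold protein of the processome, was the lowest in HCT116 at 6.37 TPM. FBL, the methyltransferase fibrillarin of box C/D snoRNPs, stood at 533 ± 55.0 TPM (SD, n = 3) in HCT116 and 377 ± 15.03 TPM in SW480. Nucleolin (NCL), an abundant nucleolar RNA-binding protein, stood at 1180 ± 244 TPM in HCT116 and 336 ± 9.59 TPM in SW480.

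Between the control libraries of the lines, edgeR's quasi-likelihood test called 30 of the 45 genes higher in HCT116 and 7 lower, where 41.5% of all genes tested were called higher and 37% lower. BOP1, a scaffold of the PeBoW complex, stood at 189, 223 and 181 CPM in the HCT116 controls and at 38.8, 39.3 and 35.2 CPM in the SW480 controls, a log2 difference of 2.39 ± 0.08 (SE). These CPM were scaled over both lines together, and those of the depletions below within each line. RRS1, which helps to place the 5S particle in the 60S subunit, was higher in HCT116 by 1.51 ± 0.09. UTP14A, which activates a helicase that releases the U3 snoRNA, was the other way round, at 45.2, 44.97 and 46.2 CPM in HCT116 and 132, 133 and 138 CPM in SW480, a log2 difference of -1.57 ± 0.06. DKC1, the pseudouridine synthase of box H/ACA snoRNPs (-0.63 ± 0.05), and NPM1 (-0.61 ± 0.06) were also lower in HCT116. The groups of the lines did not overlap for BOP1, RRS1, UTP14A, DKC1 or NPM1 between HCT116 and SW480 controls; the lines were grown in different media, which cannot be told apart from the line. PWP2, a UTP-B protein, differed by 3.62 ± 0.33, but 86.35% of its 60-base stretches also occur in a near-identical gene model on chromosome 21, and the counting divides reads between both models. With both summed, the difference was 1.48.

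In HCT116 the summed level of the 45 genes lay above control with every siRNA. The 3 control libraries summed to 8609 to 8638 CPM, the siBRD8-6 libraries to 10550 to 10768 CPM, the siBRD8-36 libraries to 9903 to 10974 CPM, the siTIP60-2 libraries to 9866 to 9882 CPM and the siTIP60-11 libraries to 11956 to 12216 CPM. No depleted library overlapped the controls. As a share of all counts, without TMM scaling, the 45 genes made up 0.855% to 0.891% in the HCT116 controls and 0.968% to 1.21% in the depleted libraries, also without overlap. In SW480 the TMM-scaled controls summed to 8053 to 8153 CPM, and the 12 depleted libraries lay below them, between 6824 CPM (siBRD8-6) and 7650 CPM (siBRD8-36). The direction in siBRD8-36 depended on the scaling: without it, the siBRD8-36 libraries held 0.781% to 0.806% of the counts in these genes and lay above the controls (0.762% to 0.771%), while the libraries of the other siRNAs lay below, at 0.692% to 0.730%. NPM1 alone made up a large part of this sum, at 2983, 3021 and 2898 CPM in the SW480 controls and 2157 to 2507 CPM in the depleted libraries. With siBRD8-36 in SW480 the mean sum of all 45 genes went from 8116 to 7630 CPM. That of the 3 abundant nucleolar proteins, NPM1 among them, went from 3825 to 3258 CPM, so the other genes together did not fall. Among these, the sums of the RNA polymerase I, snoRNP, UTP-B, PeBoW and other processome genes were higher than control. Those of the UTP-A, late small subunit and remaining large subunit genes were lower. A CPM level does not tell fewer transcripts per cell from more of other transcripts, and in bulk RNA fewer cells of a kind and less RNA per cell cannot be told apart.

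**Figure D1:**
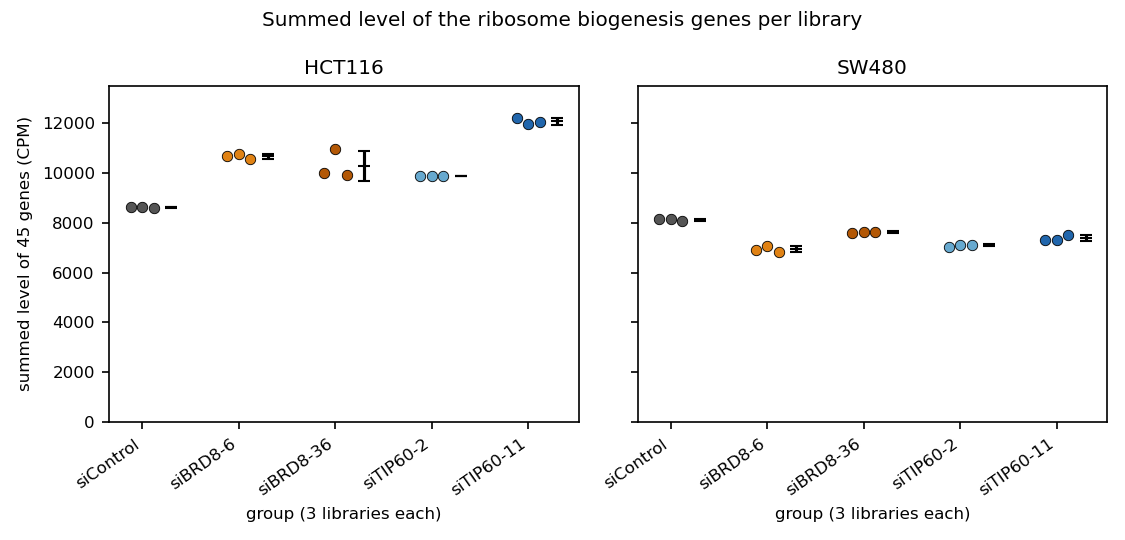
Summed level of the 45 ribosome biogenesis genes in every library (y axis, CPM, from 0) by group (x axis), with the mean and SD of the 3 libraries beside the points. In HCT116 every depleted library lay above the controls (8609 to 8638 CPM), and in SW480 every depleted library lay below them (8053 to 8153 CPM) on this TMM-scaled measure; as a share of unscaled counts the siBRD8-36 libraries of SW480 lay above their controls.

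BRD8 depletion in HCT116 raised 21 of the 45 genes and lowered 0, where 12.2% of all 15919 genes tested were called higher and 12.2% lower. To be called, a gene had to move the same way with both siRNAs of a target, and its weaker siRNA had to pass 0.05 in edgeR's quasi-likelihood test, with Benjamini-Hochberg adjustment over all genes tested. At an unadjusted p under 0.05 for both siRNAs, 0 genes were lower, as with DESeq2, and 24 were higher. The log2 fold changes of the 21 called genes ran from 0.25 to 0.72, and the median of all 45 was 0.22, against -0.02 for all genes tested. TIP60 depletion in HCT116 raised 26 of the 45 and lowered 0, where 13.7% of all genes were called higher and 14.1% lower; 0 were lower at an unadjusted p under 0.05 or with DESeq2. The called changes ran from 0.33 to 1.20, and the median of the 45 was 0.42, against -0.03 for all genes. Among the 5166 genes at or above the lowest mean level of a member (43.7 CPM), 19.2% were called higher and 13.6% lower with BRD8 depletion. With TIP60 depletion these shares were 21.7% and 16.8%. Both comparisons of a line share their 3 control libraries. Without HCT116 control replicate 2, the library with the high ribosomal protein share, 23 and 26 genes were raised. The summed level of the epithelial markers moved with the groups as well, from 3618 CPM in the HCT116 controls to group means of 5876 to 7278 CPM, and mitochondrial genes took 1.61% of the control counts against 2.01% to 2.94%. The part of these shifts in the rises was not tested.

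In SW480 BRD8 depletion raised 6 of the 45 and lowered 8, where 12.9% of all 15277 genes tested were called higher and 14% lower. With changes averaged over both siRNAs, the median of the 45 was -0.11, against -0.00363 for all genes. The siRNAs moved this median in opposite directions, to -0.24 with siBRD8-6 and 0.16 with siBRD8-36. Leaving out SW480 siBRD8-6 replicate 2, or control replicate 1 or 2, took the 6 raised genes to 3. TIP60 depletion raised 6 and lowered 11, where 11.5% of all genes were called higher and 12.1% lower, and the median was -0.13, against 0.01. The raised share of the 45 (13.3% for each target) and the share lowered by BRD8 depletion (17.8%) lay near these backgrounds, so these counts are no result about the 45 genes. They also lay near the 14.6%, 13% and 16.9% of genes at or above the lowest mean level of a member. That floor was 3.85 CPM, set by PWP2, and kept 12125 of the 15277 genes, so it matches the level of the 45 only loosely. The share lowered by TIP60 depletion was 24.4%, against 12.1% of all genes and 14.9% of genes at or above that floor. Other values moved with the SW480 groups too: mitochondrial genes took 2.69% to 2.80% of the control counts and 4.02% to 4.31% with siTIP60-11, and the epithelial markers summed to 4171 CPM in the controls and to 5324 and 5625 CPM with siBRD8-6 and siBRD8-36. Their part in the SW480 calls was not tested. All 6 genes raised by BRD8 depletion in SW480 were among the 21 raised in HCT116, and all 6 raised by TIP60 depletion in SW480 were among the 26 raised in HCT116. Since 0 of the 45 were called lower in HCT116, the lines could share no lowered gene. POLR1A, NOLC1 and UTP20 were raised in all 4 comparisons, and UTP4 (BRD8), UTP6 and DDX18 (TIP60) were raised in HCT116 and lowered in SW480 by the same target. DDX10 and LTV1 were raised by TIP60 depletion in HCT116 but lowered by BRD8 depletion in SW480, and WDR12 was raised by BRD8 depletion in HCT116 but lowered by TIP60 depletion in SW480. FBL, DKC1, NOP14 and DDX52 were called in none. The shares of all genes with these overlaps and patterns were not counted, so they do not set the 45 genes apart.

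The SW480 falls depended on the scale of measurement. Ribosomal protein genes took 10.4% to 10.8% of the counts in the SW480 controls and 7.63% to 9.49% in the depleted libraries, and log2 fold changes in SW480 rose with transcript length over all genes tested. Genes in the shortest of 3 equal groups had a median of -0.15 with BRD8 depletion and -0.13 with TIP60 depletion, and those in the longest 0.13 and 0.14. On log2(TPM + 1) the median of all genes moved to 0.23 and 0.18, so that the median of the 45 became 0.18 and 0.08, which is 0.05 and 0.10 below all genes. There, limma called 1 gene lower with BRD8 depletion (GNL3) and 2 with TIP60 depletion (UTP18, WDR12), in place of 8 and 11. With the length trend of all genes subtracted from the count-based changes, the medians of the 45 were -0.08 and -0.15. Length also ran with the changes among the 45 genes themselves: Spearman's rho over these 45 was 0.60 (TIP60) and 0.28 (BRD8) in SW480 and 0.39 and 0.06 in HCT116, as a description across genes measured in the same libraries. UTP20 (8346 bases) and POLR1A (5726 bases), called higher in all 4 comparisons, are the longest of the 45. The part of transcript length and library composition in the rises and falls was not tested.

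**Figure D2:**
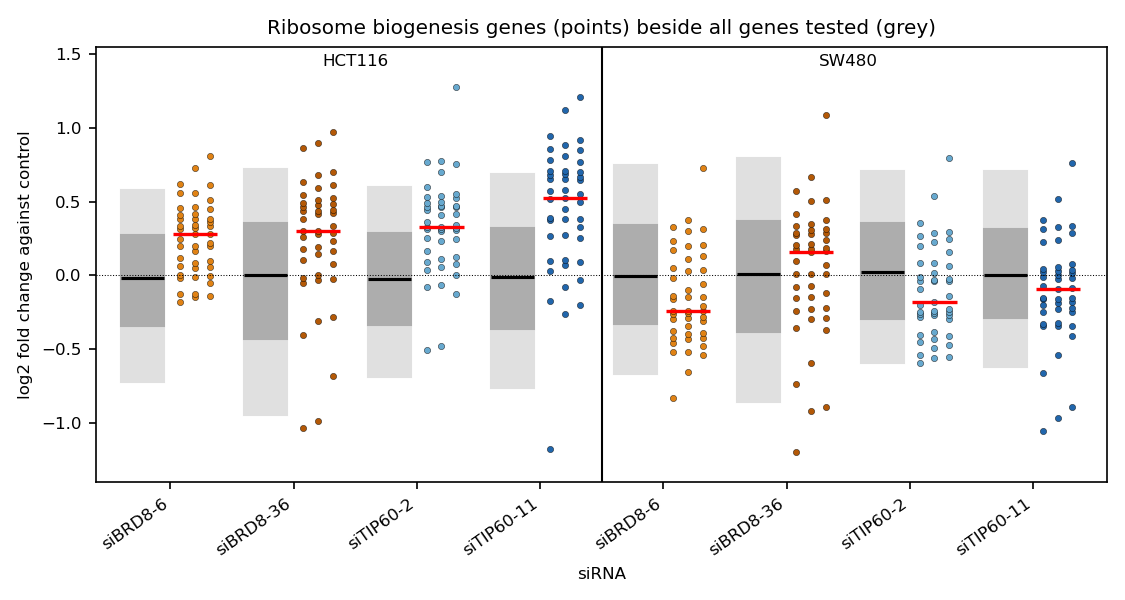
Log2 fold change against control (y axis) of the 45 genes (points, red line at their median) beside all genes tested (grey: light box 10th to 90th percentile, dark box 25th to 75th, black line median) for each siRNA. In the order of the x axis, the red medians were 0.28, 0.30, 0.33 and 0.52 for HCT116, then -0.24, 0.16, -0.18 and -0.09 for SW480.

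Among the RNA polymerase I subunits, POLR1A, the largest subunit, was raised by both targets in both lines. Its level was 113, 95.01 and 125 CPM in the HCT116 controls, 143 to 149 CPM with siBRD8-6, 172 to 190 CPM with siBRD8-36, 144 to 152 CPM with siTIP60-2 and 197 to 205 CPM with siTIP60-11. In SW480 it was 81.2, 76.0 and 78.3 CPM in the controls, 93.6 to 113 CPM and 154 to 192 CPM with the BRD8 siRNAs, and 110 to 120 CPM and 130 to 136 CPM with the TIP60 siRNAs. No depleted library of either line overlapped its controls. The log2 fold changes were 0.53 ± 0.06 (BRD8) and 0.63 ± 0.06 (TIP60) in HCT116, and 0.73 ± 0.07 (adjusted p = 0.00080) and 0.65 ± 0.07 (adjusted p = 1.4e-05) in SW480. POLR1A lies on chromosome 2 (GRCh38, 86020216 to 86106155, minus strand). POLR1B, the second largest subunit, was called only for TIP60 depletion in HCT116 (0.47 ± 0.07), a difference between the lines of 0.31 ± 0.09 (adjusted p = 0.0073), and its change with BRD8 depletion was 0.05 ± 0.07 in HCT116 and -0.04 ± 0.06 in SW480.

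Of the snoRNP proteins, NOLC1, a chaperone that carries snoRNPs to the nucleolus, was raised by both targets in both lines. In HCT116 its controls lay at 366 to 403 CPM and the depleted libraries at 626 to 649, 424 to 454, 609 to 642 and 719 to 745 CPM in the order siBRD8-6, siBRD8-36, siTIP60-2 and siTIP60-11. In SW480 the controls lay at 169 to 182 CPM and the depleted libraries at 193 to 271 CPM, with no overlap in either line. The changes were 0.45 ± 0.04 and 0.81 ± 0.04 in HCT116 and 0.36 ± 0.05 and 0.31 ± 0.05 in SW480, for BRD8 and TIP60. NOP56, a core protein of box C/D snoRNPs, was raised by TIP60 depletion in HCT116 (0.64 ± 0.04), whereas its partner NOP58 was lowered by TIP60 depletion in SW480 (-0.48 ± 0.05). FBL passed no target test, with changes from -0.11 ± 0.10 to 0.23 ± 0.08. DKC1 also passed none, and the TIP60 siRNAs moved it in opposite directions in HCT116.

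NCL and NPM1 differed in pattern although both are abundant nucleolar proteins. NCL rose with BRD8 depletion in HCT116 (0.53 ± 0.07) and SW480 (0.23 ± 0.05), from 1270 to 1504 CPM to 1772 to 2215 CPM in HCT116. NPM1 fell in SW480 with BRD8 depletion (-0.37 ± 0.04, adjusted p = 1.3e-06) and TIP60 depletion (-0.31 ± 0.04, adjusted p = 0.00016) and was not called in HCT116 (0.21 ± 0.06 and 0.13 ± 0.06). On log2(TPM + 1) the SW480 changes of NPM1 were -0.08 and -0.13 and passed no test. Pseudogene copies hold 16.44% of the 60-base stretches of NPM1. DDX21, a helicase of RNA polymerase I transcription and rRNA processing, was raised by TIP60 depletion in HCT116 (0.33 ± 0.05).

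The UTP-A proteins bind the precursor first and link its transcription to its processing. Of these 6, BRD8 depletion raised 3 in HCT116 (WDR75, UTP15, UTP4) and lowered 3 in SW480 (UTP4, WDR43, NOL11). TIP60 depletion raised 3 in HCT116 (HEATR1, UTP4, WDR75) and lowered 2 in SW480 (WDR43, NOL11). UTP4 stood at 104 to 114 CPM in the HCT116 controls and 118 to 142 CPM in the BRD8 libraries, and at 124 to 129 CPM in the SW480 controls and 94.2 to 114 CPM in the BRD8 libraries. The groups did not overlap in either line, and the changes were 0.25 ± 0.06 and -0.31 ± 0.05. WDR43 stood at 175, 170 and 185 CPM in the SW480 controls and at 139 to 154 CPM in all 12 depleted libraries. Its changes in SW480 were -0.29 ± 0.05 and -0.26 ± 0.05, but with BRD8 depletion the change was 0.04 on log2(TPM + 1). HEATR1, a large HEAT-repeat protein that supports RNA polymerase I transcription, was raised by TIP60 depletion in HCT116 (0.68 ± 0.06).

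The UTP-B proteins form the next module to join. TIP60 depletion raised 3 of the 4 in HCT116 (PWP2, TBL3 and UTP6) and lowered 2 in SW480 (UTP18 and UTP6). UTP6 stood at 54.8 to 57.5 CPM in the HCT116 controls and 64.4 to 81.0 CPM in the TIP60 libraries, and at 77.9 to 81.1 CPM in the SW480 controls and 59.9 to 68.7 CPM in the TIP60 libraries. Again the groups did not overlap, and the changes were 0.37 ± 0.05 and -0.30 ± 0.05. UTP18 fell in SW480 by 0.49 ± 0.06 on the log2 scale and by 0.34 on log2(TPM + 1), where it also passed the test. PWP2 alone stood at 2.49 to 4.92 CPM in the SW480 group means and was not called there. Summed with its copy, it stood at 83.9 ± 3.94 CPM in the HCT116 controls and 93.4 ± 2.15, 118 ± 1.38, 109 ± 2.03 and 115 ± 3.55 CPM in the depleted groups, and was called higher for both targets in HCT116 either way. In SW480 the sum stood at 32.3 ± 3.02 CPM in the controls and 35.8 ± 4.42, 50.8 ± 1.94, 43.8 ± 1.38 and 35.7 ± 2.29 CPM in the depleted groups, all with higher means, whereas PWP2 alone had a change of -0.33 ± 0.64 with BRD8 depletion and -0.29 ± 0.64 with TIP60 depletion. With the sum in place of PWP2, the SW480 medians of the 45 genes were -0.08 (BRD8) and -0.11 (TIP60).

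Other processome proteins held the largest increase called for each target in HCT116, UTP14A for BRD8 and UTP20 for TIP60. UTP20 stood at 38.1, 31.5 and 43.1 CPM in the HCT116 controls, 63.9 to 68.2 and 52.7 to 56.7 CPM with the BRD8 siRNAs, and 85.9 to 96.6 and 77.5 to 86.4 CPM with the TIP60 siRNAs. In SW480 it stood at 35.8, 35 and 35.4 CPM in the controls, 56.6 to 61.8 and 46.5 to 54.8 CPM with the BRD8 siRNAs, and 58.7 to 63.2 and 44.3 to 48.8 CPM with the TIP60 siRNAs. No depleted library overlapped its controls, and the changes were 0.67 ± 0.07 and 1.20 ± 0.07 in HCT116 (adjusted p = 7.6e-05 and 5.4e-09) and 0.62 ± 0.07 and 0.59 ± 0.07 in SW480 (adjusted p = 8.8e-06 and 0.00050). UTP20 lies on chromosome 12 (GRCh38, 101280109 to 101386616, plus strand), and the E-box shown above begins 10 bases before its RefSeq start.

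NOL6, a nucleolar RNA-associated protein of the processome, stood at 44.3, 43.6 and 45 CPM in the HCT116 controls and at 54.8 to 104 CPM in the depleted libraries. It rose by 0.66 ± 0.05 and 0.99 ± 0.05 in HCT116, and with TIP60 depletion in SW480 by 0.44 ± 0.07. With BRD8 depletion in SW480 it was not called (0.35 ± 0.07), and siBRD8-6 (31.1 to 34.3 CPM) overlapped the controls (28.3 to 31.2 CPM). UTP14A rose with BRD8 depletion in both lines (0.72 ± 0.04 and 0.37 ± 0.05). TIP60 depletion in SW480 lowered RRP9, a U3 snoRNP protein (-0.43 ± 0.08), and DCAF13 (-0.42 ± 0.06), neither of which was called in HCT116. DCAF13 and the helicase gene DDX10 were lowered by BRD8 depletion in SW480 (-0.35 ± 0.06 and -0.50 ± 0.06).

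The late 40S factors escort the small subunit out of the nucleus. TIP60 depletion in HCT116 raised BYSL (0.38 ± 0.06), TSR1 (0.56 ± 0.05) and LTV1 (0.42 ± 0.06), and BRD8 depletion raised BYSL (0.30 ± 0.06) and RRP12 (0.54 ± 0.05). In SW480 1 of the 4 was called, LTV1 with BRD8 depletion (-0.63 ± 0.06). A readthrough gene model on the same strand holds 29.42% of the 60-base stretches of LTV1, so its counts are less certain.

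Of the 60S factors, BRD8 depletion raised all 3 members of PeBoW in HCT116: PES1 by 0.50 ± 0.05, BOP1 by 0.40 ± 0.06 and WDR12 by 0.25 ± 0.04. TIP60 depletion raised PES1 there (0.55 ± 0.05) and lowered WDR12 in SW480 (-0.44 ± 0.06), where the change was -0.36 on log2(TPM + 1) and also passed the test. Of the 10 remaining 60S factors, BRD8 depletion raised 6 in HCT116 and TIP60 depletion raised 7. NOP2, an rRNA methyltransferase, rose by 0.45 ± 0.04 and 0.57 ± 0.04, and GRWD1, a chaperone of a 60S protein, by 0.37 ± 0.05 and 0.81 ± 0.05. LAS1L, part of the complex that cuts the spacer between the large rRNAs, rose by 0.35 ± 0.05 and 0.57 ± 0.05 in HCT116 and by 0.28 ± 0.06 with TIP60 depletion in SW480. A second gene model on the same strand holds 48.15% of the 60-base stretches of NOP2.

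GNL3, which encodes nucleostemin, a nucleolar GTP-binding protein, had the largest difference between the lines for both targets. In SW480 it stood at 185, 184 and 184 CPM in the controls, 113 to 122 and 120 to 126 CPM with the BRD8 siRNAs, and 129 to 142 and 98.0 to 102 CPM with the TIP60 siRNAs. Every depleted library lay below every control, with changes of -0.62 ± 0.05 (adjusted p = 3.0e-09) and -0.67 ± 0.05 (adjusted p = 4.8e-07). On log2(TPM + 1) the changes were -0.31 (limma adjusted p = 0.0028) and -0.43 (limma adjusted p = 0.093). In HCT116 the controls lay at 180 to 207 CPM, and only siTIP60-2 (260 to 278 CPM) lay apart from them, above. GNL3 lies on chromosome 3 (GRCh38, 52681156 to 52694492, plus strand) and overlaps exons of GLT8D1 on the other strand. The strand setting of the counting is not given in the sources used here, and 17 of the 45 genes overlap exons of an antisense gene. GNL3 is also one of 8 members whose introns or exons hold snoRNA genes, 26 in all.

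**Figure D3:**
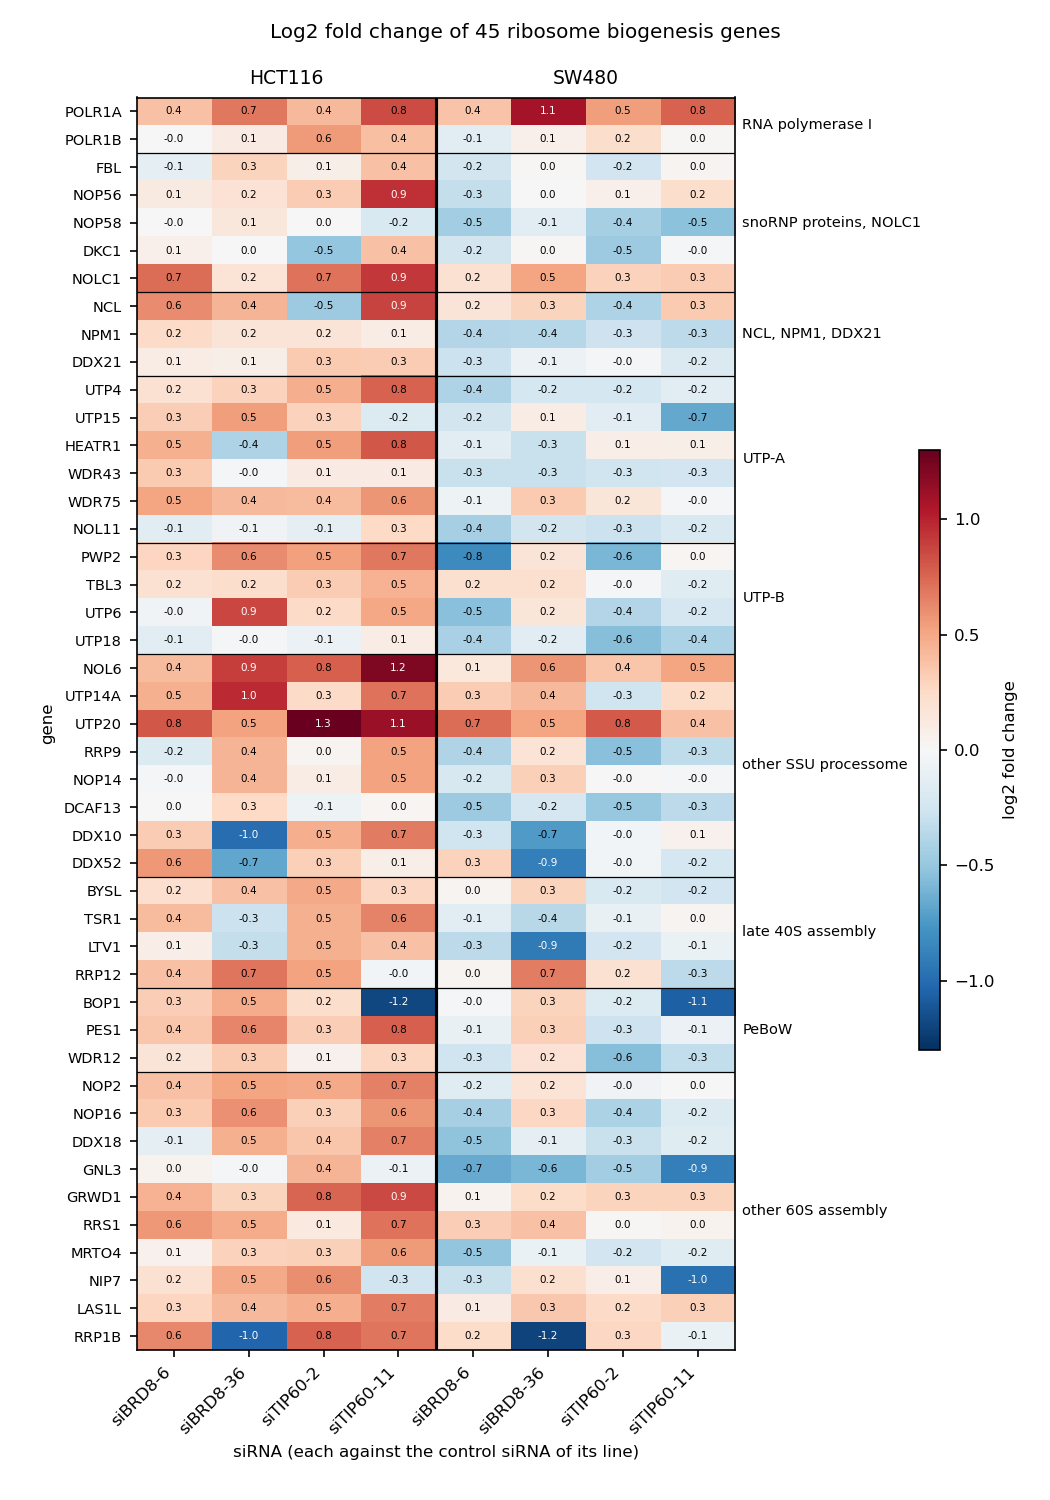
Log2 fold change against the control siRNA (colour and printed value) of the 45 genes (rows, by role) for the 4 siRNAs in each line (columns). Red fills most of the HCT116 columns; in SW480 POLR1A, NOLC1 and UTP20 are red in all 4 columns and GNL3, NPM1 and WDR43 are blue in all 4.

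**Figure D4:**
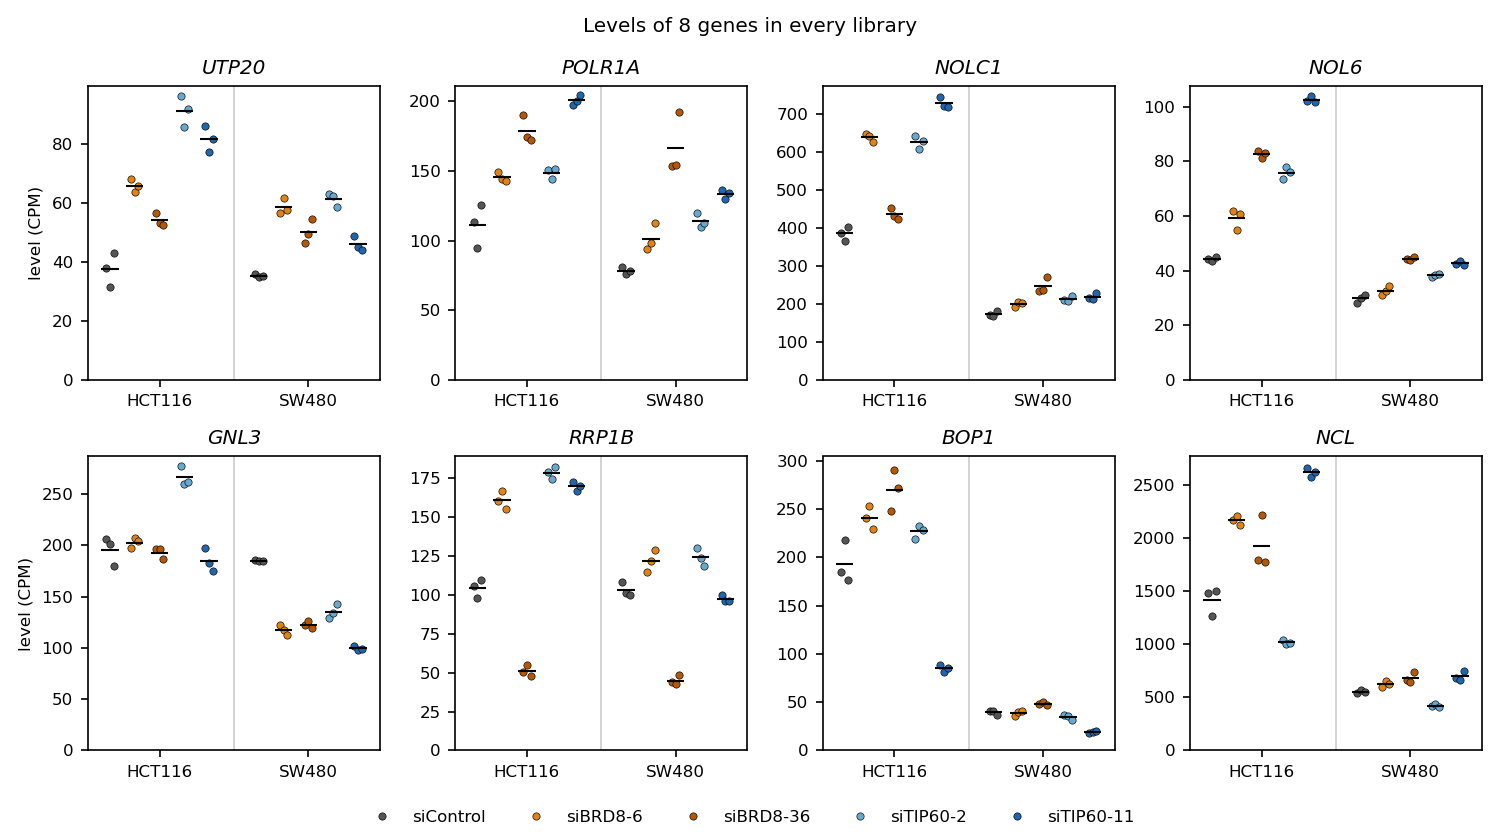
Level in CPM (y axis, from 0) of 8 genes in every library, in the order siControl, siBRD8-6, siBRD8-36, siTIP60-2 and siTIP60-11 within each line; lines mark group means. UTP20, POLR1A and NOLC1 were above control in every depleted library, GNL3 was below control in SW480, and RRP1B, BOP1 and NCL split between siRNAs of one target.

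For some genes the siRNAs of a target gave different levels, and the siRNAs were compared directly. Between siBRD8-36 and siBRD8-6, 20 genes were called higher with siBRD8-36 and 10 lower in HCT116 (28.4% and 28.3% of all genes), and 29 and 6 in SW480 (25.9% and 27%). RRP1B, a nucleolar protein of 60S assembly, stood at 98.2 to 110 CPM in the HCT116 controls, 155 to 167 CPM with siBRD8-6 and 47.9 to 55.0 CPM with siBRD8-36. In SW480 the same order held, with 99.95 to 108 CPM in the controls, 114 to 129 CPM with siBRD8-6 and 42.4 to 48.7 CPM with siBRD8-36. The difference between the siRNAs was -1.66 ± 0.06 in HCT116 and -1.44 ± 0.07 in SW480. DDX52, a helicase of the processome, split in the same directions in both lines (-1.24 ± 0.05 and -1.20 ± 0.08), and DDX10 differed by -1.32 ± 0.06 and -0.48 ± 0.07. UTP6 was higher with siBRD8-36 by 0.92 ± 0.05 and 0.70 ± 0.06, and POLR1A by 0.30 ± 0.07 and 0.71 ± 0.08. In 5 of the 45 genes in HCT116, and 7 in SW480, the BRD8 siRNAs moved the gene in opposite directions with each passing the test. The share of all genes that did so was not counted, so these counts do not set the 45 genes apart.

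Between siTIP60-11 and siTIP60-2, 27 genes were called higher with siTIP60-11 and 8 lower in HCT116 (22.5% and 23.5% of all genes), and 10 and 9 in SW480 (21.9% and 23.4%). BOP1 stood at 177 to 218 CPM in the HCT116 controls, 219 to 233 CPM with siTIP60-2 and 81.5 to 88.8 CPM with siTIP60-11, a difference between the siRNAs of -1.41 ± 0.07. In SW480 it was 36.8 to 41.0 CPM in the controls and 17.5 to 20.1 CPM with siTIP60-11, and the siRNAs differed by -0.88 ± 0.09. NIP7, which helps 60S maturation, differed by -0.86 ± 0.05 and -1.05 ± 0.07. NCL went the other way, from 1007 to 1044 CPM with siTIP60-2 to 2576 to 2658 CPM with siTIP60-11 in HCT116, a difference of 1.36 ± 0.08, and of 0.74 ± 0.06 in SW480. DKC1 showed the same direction (0.89 ± 0.06 and 0.46 ± 0.05). The siTIP60-2 libraries of NCL and DKC1 lay below the controls in both lines. In 4 genes in HCT116 and 3 in SW480 the TIP60 siRNAs moved the gene in opposite directions with each passing the test. Here too the share of all genes was not counted.

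Compared with each other in HCT116, BRD8 depletion left 11 genes higher and 24 lower than TIP60 depletion (30% and 31.7% of all genes). BOP1 (0.88 ± 0.05), UTP15 (0.37 ± 0.06) and NCL (0.32 ± 0.05) were higher with BRD8 depletion, and RRP1B (-0.94 ± 0.04), DDX10 (-0.90 ± 0.04) and HEATR1 (-0.65 ± 0.05) lower. In each of these 6 genes the siRNAs of at least 1 target also differed from each other in HCT116; HEATR1, for example, was lower with siBRD8-36 than with siBRD8-6 by a log2 difference of -0.86 ± 0.07. In SW480, 17 were higher and 11 lower (29.7% and 30.2% of all genes), with BOP1 (0.75 ± 0.06), RRP12 (0.43 ± 0.05) and WDR12 (0.40 ± 0.05) higher and RRP1B (-0.57 ± 0.05), DDX10 (-0.51 ± 0.05) and LTV1 (-0.46 ± 0.05) lower; the BRD8 siRNAs differed from each other in each of these 6 genes there.

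The lines were compared through an interaction term over all 30 libraries, which asks whether the change in HCT116 exceeded that in SW480. For TIP60 depletion it was called for 39 of the 45 genes, all with the larger value in HCT116, where 13.1% of all genes were called in that direction and 18% in the other. The median difference of the 45 was 0.46, against -0.06 for all genes. The largest were GNL3 (0.81 ± 0.07, adjusted p = 2.1e-11), UTP4 (0.77 ± 0.07) and NOP16, a 60S factor (0.70 ± 0.10). For BRD8 depletion it was called for 24 genes with the larger value in HCT116 (12.5% of all genes) and 1 in the other direction (21.9%), with a median of 0.22 against -0.10. The largest were GNL3 (0.57 ± 0.07), UTP6 (0.53 ± 0.07) and NPM1 (0.51 ± 0.07), and the 1 gene with the larger value in SW480 was POLR1A (-0.27 ± 0.10, adjusted p = 0.040). On log2(TPM + 1), 10 genes were called for BRD8 and 24 for TIP60, in either direction. Of all 17411 genes tested, 5942 (BRD8) and 5134 (TIP60) were called there. The BRD8 share of the 45 lay below that of all genes, so this count is no result about the 45 genes. The TIP60 share lay above. The SW480 side of the BRD8 comparison averaged siRNAs with medians of opposite sign, -0.24 for siBRD8-6 and 0.16 for siBRD8-36.

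**Figure D5:**
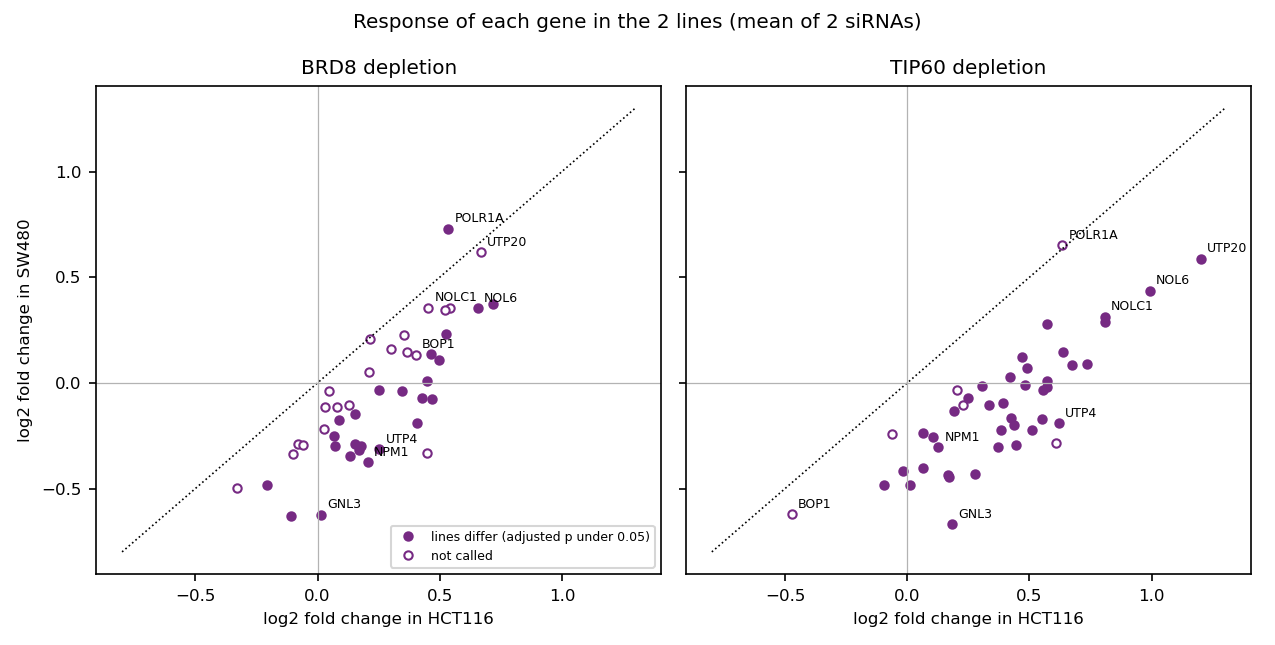
Log2 fold change, averaged over both siRNAs, in HCT116 (x axis) and SW480 (y axis) for each of the 45 genes; the dotted line marks equal change, and filled points passed the test of the difference between lines. Nearly every gene lies below the dotted line, GNL3 farthest of the named genes, while POLR1A lies on or above it.

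The E-box was set against the responses as a description, with no test. In HCT116 the 17 genes with CACGTG had medians of 0.21 (BRD8) and 0.42 (TIP60), and the 19 matched genes without it 0.25 and 0.45. In SW480 the medians were -0.11 and -0.17 with the motif, and -0.07 and -0.03 without. UTP20, with a rise in both lines, and GNL3, with a fall in SW480, both carry the motif within 10 bases of a RefSeq start. Another window of GNL3 lacks the motif, and a link between motif and response was not tested.

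A second list held 77 other ribosome biogenesis genes, none among the 45. BRD8 depletion raised 25 and lowered 6 in HCT116 (median 0.14), and TIP60 depletion raised 39 and lowered 2 (median 0.32). In SW480 the counts were 6 raised and 19 lowered with BRD8 depletion (median -0.09), and 6 and 17 with TIP60 depletion (median -0.11). In HCT116 these counts are 32.5% raised and 7.79% lowered (BRD8) and 50.6% and 2.60% (TIP60), against 12.2% and 12.2%, and 13.7% and 14.1%, of all genes. In SW480 the raised share was 7.79% for each target, below the 12.9% and 11.5% of all genes, and the lowered shares were 24.7% and 22.1%, against 14% and 12.1%. The SW480 counts are subject to the scale as well. On log2(TPM + 1), 11 of the 77 genes were called in either direction for TIP60 depletion, where 2632 of all 15277 genes were called. That share of the 77 lay below the share of all genes. For BRD8 depletion, where 3692 of all 15277 genes were called, the count stayed within the tolerance given below. In HCT116 DHX37, the helicase of the U3 release (0.85 ± 0.05), and UTP3 (0.95 ± 0.06) rose with BRD8 depletion, while BMS1, a GTPase of the processome (0.75 ± 0.05), and UTP23 (0.72 ± 0.06) rose with TIP60 depletion. RSL24D1, a 60S placeholder protein, fell in all 4 comparisons, by 1.05 ± 0.07 and 1.02 ± 0.07 in HCT116 and by 0.79 ± 0.05 and 0.69 ± 0.05 in SW480. MDN1, the AAA ATPase that strips factors from the 60S subunit, rose with both targets in SW480 (0.54 ± 0.10 and 0.60 ± 0.10).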

How the data were processed

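RNA-seq libraries of 2 cell lines, 5 siRNA groups and 3 replicates were compared. Reads were handled with RSEM 1.3.3, STAR 2.7.3a and Trimmomatic 0.33 on hg38, per the submitters' processing notes. Annotation release and strand setting: not given in the sources used here. Each table the authors deposited holds, per the file headers, an expected count per gene, which divides reads matching several genes and need not be whole, and a TPM per gene, which corrects for transcript length. Counts were rounded and tested with edgeR 4.0.16 (quasi-likelihood, robust, TMM, expression filter) in R 4.3.3, per line over 15 libraries, or over 30 libraries between lines. Each standard error was the absolute log2 change over the root of the F statistic. CPM are TMM-scaled within a line, and for the control lines over both. The scripts were tested on simulated data. Alternatives were DESeq2 1.42.0, limma 3.58.1 on log2(TPM + 1) and log2(TPM + 0.1), other scalings and filters, a replicate block, the mean of the siRNAs, only the compared groups, and each library left out. Summing PWP2 with its copy and subtracting the length trend were added after seeing the data. The named genes were up to 6 called genes per direction and target comparison by the smaller siRNA change, up to 3 per direction elsewhere, fixed role examples, genes with opposite siRNAs and up to 2 other pathway genes per direction. The members, lists and tests were chosen with earlier results of these data known. Gene positions and shared sequence come from GENCODE release 29. POLR1F, POLR1G and POLR1H were matched by their older symbols.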

Additional observations from a re-analysis of the deposited data

Results flagged for a closer look

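The response differed between the lines by the interaction test of edgeR over all 30 libraries. For TIP60 depletion, 39 of the 45 genes had a larger value in HCT116 than in SW480 and 0 a smaller one (13.1% and 18% of all genes). The log2 differences were 0.81 for GNL3, 0.77 for UTP4 and 0.70 for NOP16. For BRD8 depletion, 24 genes had a larger value in HCT116 and 1 a smaller one (12.5% and 21.9% of all genes). The log2 differences were 0.57 for GNL3, 0.53 for UTP6 and 0.51 for NPM1, and -0.27 for POLR1A. These counts depended on the scale: on log2(TPM + 1), limma called 24 of the 45 genes for TIP60 depletion and 10 for BRD8 depletion. There, 5134 (TIP60) and 5942 (BRD8) of all 17411 genes were called, so the BRD8 share of the 45 lay below that of all genes. In SW480 the medians of the 45 had opposite signs for the BRD8 siRNAs, which this comparison averages. The depleted groups of a target in each line share 1 control group, and the SW480 control libraries were the shallowest.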

How the results depend on the processing

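Of 495 values of 25 counts and medians recomputed under the alternatives, 460 stayed within a set tolerance. A median had to keep its sign and move by less than the SD of the medians of the depleted libraries. That SD was 0.173 for BRD8 in SW480, larger than the median itself (-0.106), so the tolerance was wide there. A count had to stay within a fixed ratio, so that 22 to 33 genes for the BRD8 line difference all passed. Of the rises in HCT116, 16 of 21 (BRD8) and 25 of 26 (TIP60) passed in all 20 settings compared. In SW480, 3 of 6 rises and 1 of 8 falls (GNL3) passed in all of them for BRD8, and 5 of 6 rises and 2 of 11 falls (UTP18, WDR12) for TIP60. On log2(TPM + 0.1) and log2(TPM + 1), the SW480 medians of the 45 genes turned to 0.180 and 0.176 for BRD8 and 0.0789 and 0.0772 for TIP60, and WDR43 with BRD8 depletion turned to 0.0370 and 0.0365. On both TPM scales 10 genes were higher and 1 lower for BRD8 in SW480, and 2 were lower for TIP60 in SW480. Both scales called 23 between the TIP60 siRNAs in HCT116 and 10 for the line difference of BRD8. For the line difference of TIP60 they called 22 and 24, and 11 of the other pathway genes were called for TIP60 in SW480. Over all genes, log2(TPM + 1) called 5942 (BRD8) and 5134 (TIP60) of 17411 for the line differences. For TIP60 in SW480 it called 2632 of 15277. TPM moved the median of all genes by 0.262 (BRD8) and 0.198 (TIP60) in SW480, -0.141 between its TIP60 siRNAs, -0.161 and -0.156 for the line differences and 0.251 between controls. The share of calls that were higher became 85.16% against 47.93% (BRD8, SW480), 82.48% against 48.64% (TIP60, SW480), 27.94% against 48.35% (TIP60 siRNAs, SW480), 17.25% against 36.32% (line difference, BRD8) and 18.47% against 42.08% (TIP60). With RLE scaling the BRD8 line difference had 48.2% higher and the control median moved by -0.105; with upper-quartile scaling the TIP60 SW480 share was 58.67%, its median for the 45 genes -0.0861, and the control median moved by -0.118. Calling from the mean of the siRNAs gave 2 lower (BRD8) and 1 lower (TIP60) in HCT116. In SW480 it gave 10 higher and 20 lower (BRD8) and 21 lower (TIP60). It called 51, 62, 47 and 42 other pathway genes for BRD8 and TIP60 in HCT116 and then SW480. The share of all genes called by this looser rule was not counted, so these counts do not set either list apart. Leaving out 1 library gave 3 to 6 higher for BRD8 in SW480 and a TIP60 SW480 median of -0.166 to -0.0993. With the length trend subtracted, chosen after seeing the data, the BRD8 HCT116 median was 0.259. Except for fewer libraries and the looser call rule, which follow from the alternatives, the cause was not tested.

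Same-numbered libraries correlated at -0.0542 to 0.184 in HCT116 and -0.168 to 0.197 in SW480, so the numbers were not taken to pair them. With the replicate block, 23 (BRD8) and 26 (TIP60) genes were higher in HCT116, and 5 and 6 higher and 8 and 11 lower in SW480, with medians of 0.216, 0.419, -0.105 and -0.133. Total counts were lower in the SW480 libraries, and PWP2, whose reads are divided with its copy, had the low SW480 level given above.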
